A study of Mus musculus with 6 samples.

Results

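The genes described here are 7 transcription factors of the mouse pluripotency network, Sall4, Pou5f1 (Oct4), Sox2, Nanog, Klf4, Klf2 and Myc, in single oocytes with and without Ago2. The members were picked by gene symbol, and Sall4 was picked for its rise in these same arrays, so that its difference between the groups is given as a description without a test. Of the 7 genes, 6 had at least 1 probe annotated to that symbol alone, out of 13840 genes so represented on the array. Nanog had none and has no value here. Klf2 had 2 probes and every other gene had 1, which made 7 member probes.

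Gene expression was measured on chemiluminescent Applied Biosystems mouse arrays after amplification of the cDNA of 1 oocyte per array. The arrays held 3 Ago2-deficient mature oocytes from [Ago2F/F, Zp3-Cre] conditional knockout females, in which the Zp3 promoter drives Cre recombinase in growing oocytes only, and 3 wild-type GV oocytes, that is, oocytes arrested at the germinal vesicle stage before maturation. The floxed region covers internal exons, and the study allows that the allele could retain some function. The series design names the GV oocytes as controls, where the methods speak of wild-type controls, and their labels state collection from oviducts, where mature oocytes are found. Age, strain and treatment of the females were not given in the labels. Genotype and stage cannot be told apart in this design, because wild-type mature oocytes were not analysed here. Whether the oocytes of a group were taken from separate animals is not stated, so that the p-values below measure only the spread between these 6 oocytes.

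Pou5f1 and Sox2 bind DNA together and, with Nanog, hold the core of the regulatory circuit that keeps embryonic stem cells undifferentiated. Sall4 is a zinc finger protein that works with this core and recruits the NuRD deacetylase complex. Klf2 and Klf4 are Kruppel-like zinc finger factors, of which Klf4 passes on LIF signalling, and Myc is a basic helix-loop-helix factor of growth and ribosome production. Growing mouse oocytes store Pou5f1 and Sall4 transcripts as maternal mRNA, which is used or cleared around maturation and the first cleavages.

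The knockout itself could not be read from these arrays. The single Ago2 probe had quantile-normalized log2 signals of 6.67, 6.49 and 6.94 in Ago2-deficient mature oocytes, against 7.88, 6.25 and 6.93 in wild-type GV oocytes. It passed a signal-to-noise ratio (S/N) of 3, the limit for detection used throughout, on 0 Ago2-deficient arrays and on 1 GV array, and whether it lies in the deleted exons is not known. The arrays of the groups differed as a whole. From 4620 to 6798 probes of 33012 were detected on an Ago2-deficient array, against 10650 to 11334 on a GV array, and over the 2512 probes detected on all 6 arrays the median S/N was 12.8 to 29.6 against 57.2 to 58.5. The median signal of undetected probes was 145 to 231 on Ago2-deficient arrays and 70.8 to 83.3 on GV arrays. After scaling, a lower RNA content of the whole cell and a lower share of a transcript cannot be told apart. Of 15 oocyte marker genes on the array, 9 were seen in every Ago2-deficient oocyte and 14 in every GV oocyte, and 4 markers (Zp2, Figla, Kit and Ddx4) were detected in no Ago2-deficient oocyte. The summed log2 level of the oocyte markers was 20.23 to 20.49 in Ago2-deficient oocytes against 22.00 to 22.20 in GV oocytes. Of 16 cumulus and granulosa markers, 0 were seen in every Ago2-deficient oocyte and 1 (Inha) in every GV oocyte, with 11 detected on no array of each group and summed levels of 11.67 to 12.52 against 11.70 to 12.66. Of 12 markers of other ovarian and blood cells, 10 were detected in no Ago2-deficient oocyte and 9 in no GV oocyte. Their sum, however, was 12.52 to 12.92 in Ago2-deficient oocytes against 10.86 to 11.28 in GV oocytes. Dcn was detected on 3 Ago2-deficient arrays and 0 GV arrays. Detection went the other way for Col1a2 (1 Ago2-deficient array against 3 GV arrays), Col1a1 (0 against 2) and Pecam1 (0 against 1). The part of these array and marker differences in the results below was not tested.

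Among the members, Sall4 was bright on every array and brighter in Ago2-deficient mature oocytes. Sall4 was not put to the test. Klf2 passed it as higher, Klf4 and Pou5f1 were detected in all 3 GV oocytes and were dim or undetected in the Ago2-deficient ones without passing the test, and Myc and Sox2 were at or near background on most arrays. A gene entered the test if 1 group, or both, had it detected on all 3 arrays, which left 7915 genes, and calls required a limma adjusted p below 0.05 and more than a 2-fold change. Of the 6 genes with a probe, 4 passed this detection filter. Klf2, Klf4 and Pou5f1 passed it through the GV group alone, as did 5171 of the tested genes, and 3038 of those were called lower and 64 higher. A gene that passed through the GV group alone had an S/N under 3 on at least 1 Ago2-deficient array. Its signal need not be lower there, as Klf2 shows. The filter thus weighs on the direction for Klf4 and Pou5f1 without fixing it. The same holds for every gene below that was called lower and had an S/N under 3 on at least 1 Ago2-deficient array. These are the genes named as undetected in Ago2-deficient oocytes, and also Wdr5, Trim28, Lin28a, Max and Odc1, which were detected in only some of them.

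**Figure D1:**
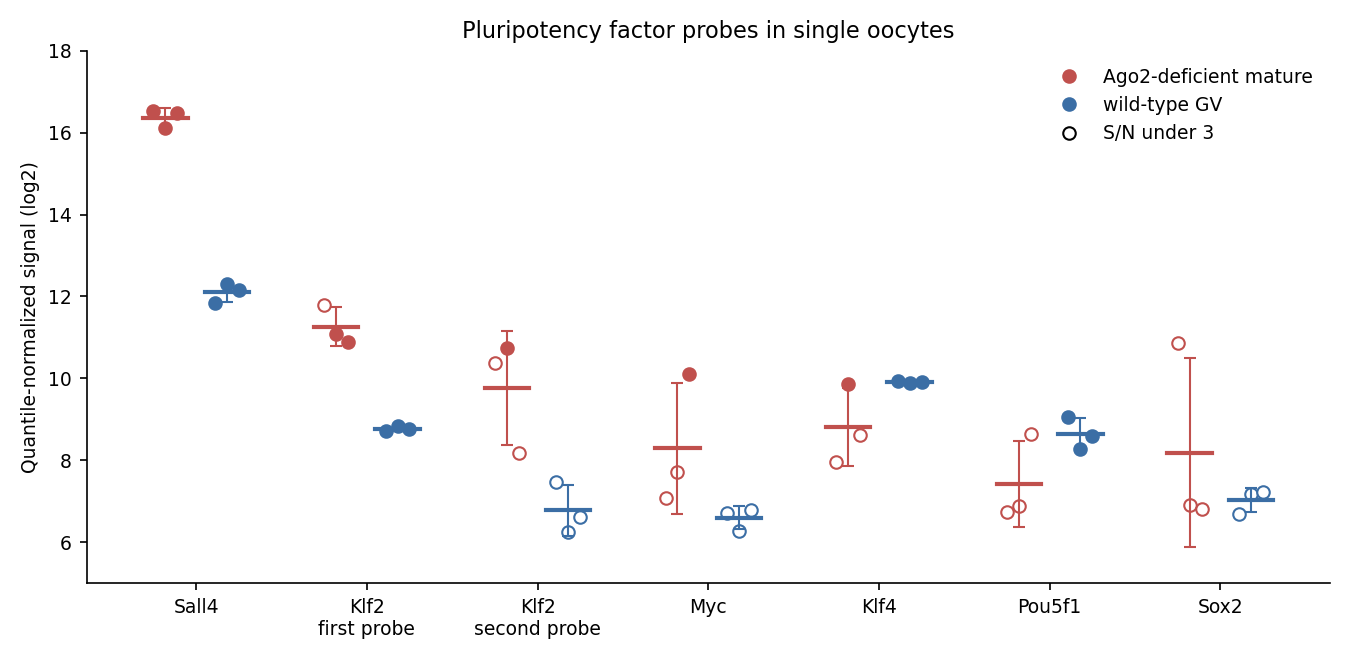
Quantile-normalized log2 signal (vertical axis) of the 7 member probes in each of the 3 Ago2-deficient mature oocytes (red, left of each pair) and the 3 wild-type GV oocytes (blue, right). Filled points passed an S/N of 3 and open points did not, bars are means and whiskers are SDs (n = 3 each). The Sall4 groups lie 3.80 log2 units apart, while the Pou5f1 and Sox2 groups overlap.

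Sall4 encodes a zinc finger repressor that oocytes and early embryos need for the transition from oocyte to embryo and for the inner cell mass. Its probe (749421) had log2 signals of 16.53, 16.10 and 16.48 in Ago2-deficient mature oocytes, against 11.84, 12.30 and 12.16 in wild-type GV oocytes. All 3 Ago2-deficient oocytes were above all 3 GV oocytes, and the nearest values of the groups lay 3.80 log2 units apart. The means were 16.37 ± 0.23 and 12.10 ± 0.24 (SD, n = 3 each), a difference of 4.27, or 19.3-fold. Of the 7915 genes tested, 211 had a larger positive difference.

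The deposited signal and the S/N of the Sall4 probe did not run the same way. Before any scaling the signal was 32450, 71745 and 60090 in Ago2-deficient oocytes, against 9032, 10706 and 8990 in GV oocytes, so that the groups were 3.03-fold apart at their nearest values and the ratio of the means was 5.72. The S/N was 35.9, 28.0 and 34.1 in Ago2-deficient oocytes, against 50, 65.7 and 53.1 in GV oocytes. It was thus lower in every Ago2-deficient oocyte than in any GV oocyte, with means of 32.7 ± 4.12 and 56.3 ± 8.30 (SD, n = 3 each). The signal per unit of S/N was 903, 2559 and 1765 on the Ago2-deficient arrays, against 181, 163 and 169 on the GV arrays. This pattern was not particular to Sall4. Of the 1087 genes called higher and detected on all 6 arrays, 841 had a lower mean S/N in Ago2-deficient oocytes, and 526 had a lower S/N on every Ago2-deficient array than on every GV array. Its part in the size of the Sall4 difference was not tested.

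**Figure D2:**
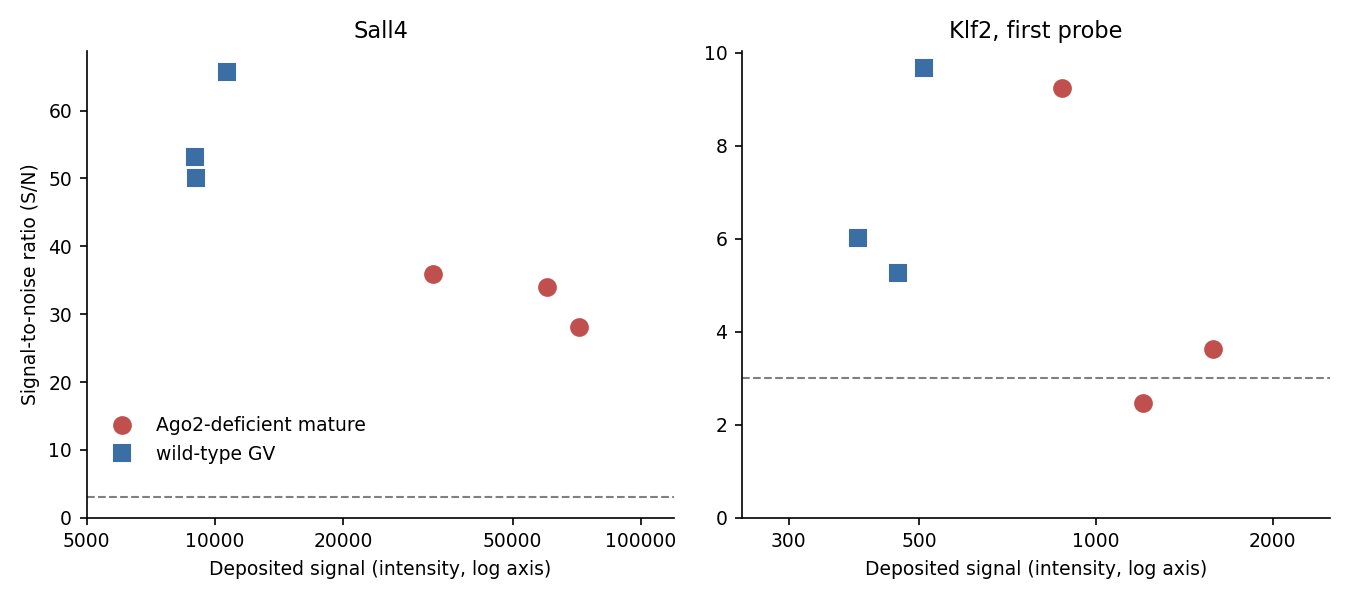
Deposited signal (horizontal log axis) against S/N (vertical axis) for Sall4 and for the first Klf2 probe in each of the 3 Ago2-deficient mature oocytes (red circles) and 3 wild-type GV oocytes (blue squares), with the detection limit of 3 as a dashed line. For Sall4 the Ago2-deficient oocytes lie at higher signal and lower S/N than every GV oocyte. For Klf2 they lie at higher signal, at an S/N of 2.46, 3.62 and 9.24.

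The scaling between arrays moved the size of the Sall4 difference but not its sign. The difference was 4.43 after cyclic loess, 4.0 after centring on probes detected on all 6 arrays, 2.44 without any scaling and 1.34 after scaling the arrays to a common median, and under each of these the groups did not overlap. The median difference of all tested genes itself moved with the scaling, being −1.39 in the quantile-normalized values, −0.36 after loess, −0.42 after centring, −1.98 without scaling and −3.08 with a common median. Relative to that median, Sall4 stood 4.42 to 5.66 higher under the 5 scalings.

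The genes whose pattern was most like that of Sall4 over the 6 arrays, by Pearson correlation of log2 signals, were Cox8a (r = 0.99994), Fbxo22 (0.9992), Romo1 (0.9989), 2310033P09Rik (0.9989) and Alad (0.9987). All were detected on all 6 arrays, and their differences were 2.47, 2.13, 3.45, 5.18 and 2.18. The 6 arrays fall into 2 groups and share their scaling, so that r mostly says how tightly a gene separated the groups, and 108 of 4564 genes compared had an r over 0.99.

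Klf2 encodes a Kruppel-like factor that upholds ground-state pluripotency in mouse embryonic stem cells. On its first probe (507591) the log2 signals were 11.79, 11.09 and 10.89 in Ago2-deficient mature oocytes, against 8.72, 8.84 and 8.76 in wild-type GV oocytes. All 3 Ago2-deficient oocytes were above all 3 GV oocytes, by 2.05 log2 units at the nearest values. The means were 11.26 ± 0.47 and 8.77 ± 0.06 (SD, n = 3 each), a difference of 2.49 (SE 0.36, 95% interval 1.63 to 3.34), or 5.60-fold, with a limma adjusted p of 0.00127. Klf2 was thus called higher, as were 17.4% of all tested genes. With the arrays scaled to a common median the difference was 0.29 and the call was lost (adjusted p = 0.599). Relative to the median of all tested genes the Klf2 difference was 3.37 to 4.0 under the 5 scalings.

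The S/N of the first Klf2 probe was 2.46, 3.62 and 9.24 in Ago2-deficient oocytes, against 9.68, 5.27 and 6.02 in GV oocytes, so that 2 Ago2-deficient arrays and 3 GV arrays passed the limit of 3. With a limit of 5, 1 Ago2-deficient array passed. The deposited signal was 1202, 1583 and 877 in Ago2-deficient oocytes, against 511, 461 and 394 in GV oocytes, a ratio of means of 2.68. The signal was higher on every Ago2-deficient array, while the S/N ranges of the groups overlapped. The second Klf2 probe (709254) had log2 signals of 10.38, 10.75 and 8.17 in Ago2-deficient oocytes, against 7.47, 6.25 and 6.62 in GV oocytes. These groups did not overlap either, but the probe was detected in 1 Ago2-deficient oocyte and in no GV oocyte and was not tested. No fold is given for it, since 5 of its 6 values are below the limit.

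Klf4 is the reprogramming member of the Kruppel-like family and overlaps with Klf2 in the sites it binds in embryonic stem cells. Its probe (440920) had log2 signals of 7.97, 9.85 and 8.62 in Ago2-deficient mature oocytes, against 9.93, 9.88 and 9.91 in wild-type GV oocytes. The GV oocytes were nearly equal, and the highest Ago2-deficient oocyte lay only 0.03 below the lowest of them. The means were 8.81 ± 0.96 and 9.91 ± 0.02 (SD, n = 3 each), a difference of −1.09 (SE 0.52, 95% interval −2.33 to 0.15) that was not called (limma adjusted p = 0.105). The S/N was −0.67, 3.80 and 1.86 in Ago2-deficient oocytes, against 26.57, 15.95 and 17.93 in GV oocytes. Klf4 was therefore detected on 1 Ago2-deficient array and on all 3 GV arrays, and the S/N was lower on every Ago2-deficient array.

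The call on Klf4 turned on single choices. It was called lower without Ago2-deficient replicate 2, the 1 oocyte of that group in which it was detected (−1.61, adjusted p = 0.0110), without scaling (−1.66, adjusted p = 0.0165) and with a common median (−2.76, adjusted p = 0.000287). After cyclic loess the difference was 0.71 and not called (adjusted p = 0.129). Relative to the median of all tested genes the Klf4 difference lay between 0.30 and 1.06 under the 5 scalings, that is, it was less negative than that of the middle gene. Groups without overlap, as for Klf4 and Klf2, were found for 70.4% of all tested genes.

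Pou5f1 encodes Oct4, the POU factor of the germline, the oocyte and the inner cell mass. Its probe (615439) had log2 signals of 6.74, 6.88 and 8.64 in Ago2-deficient mature oocytes, against 9.05, 8.27 and 8.59 in wild-type GV oocytes. Ago2-deficient replicate 3 lay within the range of the GV oocytes and the other 2 lay below it, so the groups overlapped. The means were 7.42 ± 1.06 and 8.64 ± 0.39 (SD, n = 3 each), a difference of −1.22 (SE 0.58, 95% interval −2.62 to 0.18) that was not called (limma adjusted p = 0.109), where 44.8% of all tested genes were called lower. The S/N was 0.82, 0.98 and 1.46 in Ago2-deficient oocytes, against 9.41, 3.10 and 6.07 in GV oocytes. Pou5f1 was thus not well above background on any Ago2-deficient array, and the Ago2-deficient mean is only an upper bound. The corresponding fold, 2.32, is the fitted fold itself, and it was 1.84 without Ago2-deficient replicate 1 and 1.93 without replicate 2. It is no lower limit, since the 95% interval of the difference includes 0.

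Without Ago2-deficient replicate 3, Pou5f1 was called lower (−1.83, limma adjusted p = 0.00719), with a corresponding fold of 3.55 in the quantile-normalized values. It was also called lower with a common median (−1.91, adjusted p = 0.00801), whereas centring on the probes detected on all 6 arrays gave 0.75 (adjusted p = 0.283). Relative to the median of all tested genes the difference lay between −0.29 and 1.17 under the 5 scalings. The direction of the Pou5f1 difference was therefore not settled by these values.

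Myc was above its GV values in all 3 Ago2-deficient oocytes but was measured in only 1 of them. The log2 signals of its probe (819312) were 7.08, 7.70 and 10.10 in Ago2-deficient mature oocytes, against 6.72, 6.27 and 6.80 in wild-type GV oocytes, and the S/N was 1.71, 2.84 and 8.01 against −1.29, 0.30 and 1.20. Replicate 3 of the Ago2-deficient group stood apart from the other 2, and no GV oocyte passed the limit. That spot carried a flag code of 64, whose meaning is not given, while all other member spots had codes of 0 or 1. The difference of the means was 1.70 and 0.79 without that replicate. Myc was not tested, and no fold is given, since 5 of its 6 values are below the limit.

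Sox2, the partner of Oct4 on composite DNA sites, was detected on 0 of 6 arrays. Its probe (848340) had an S/N of −0.75, 0.13 and 0.01 in Ago2-deficient mature oocytes, against 0.76, −1.36 and −0.18 in wild-type GV oocytes. The log2 signals were 10.85, 6.90 and 6.80 in Ago2-deficient oocytes, against 6.68, 7.18 and 7.22 in GV oocytes. The single high signal, in Ago2-deficient replicate 1, had an S/N below 0, and no fold is given.

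**Figure D3:**
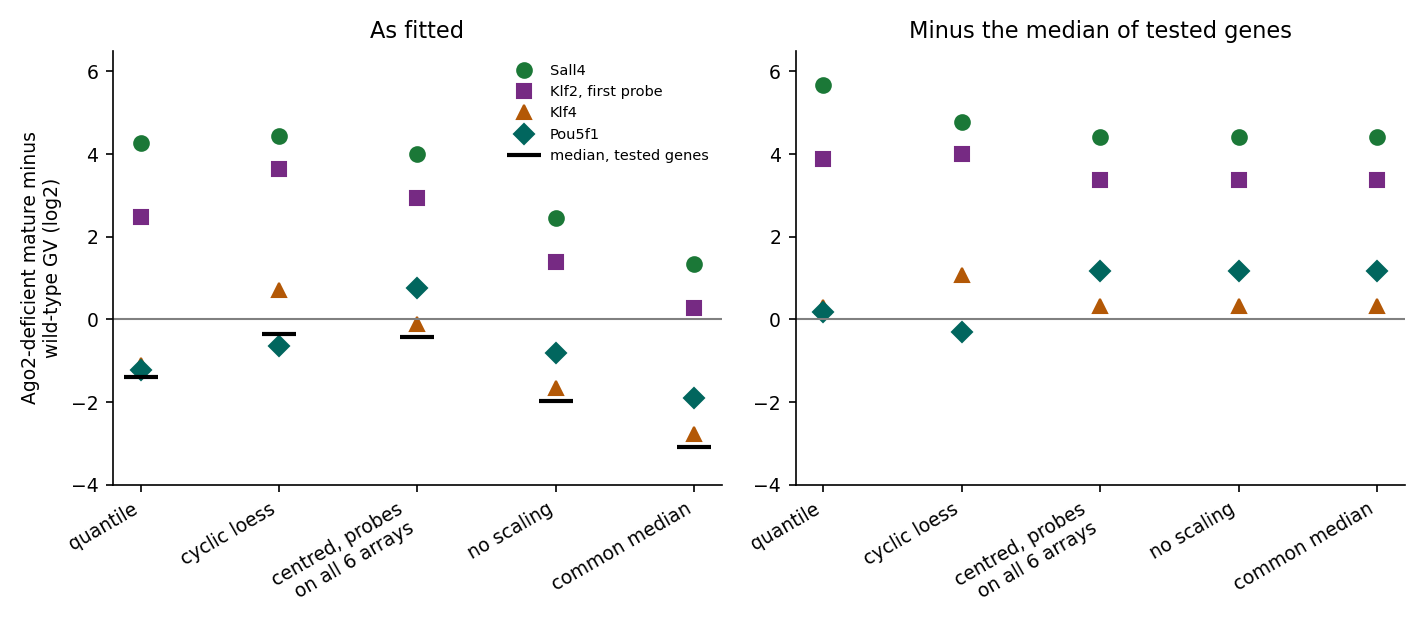
Log2 difference, Ago2-deficient mature minus wild-type GV (vertical axis), of the 4 members that passed the detection filter under the 5 scalings named on the horizontal axis, as fitted (left panel) and after subtraction of the median difference of all tested genes (right panel). Black bars in the left panel mark that median, and in the quantile-normalized values Klf4 is largely hidden behind Pou5f1. Sall4 and Klf2 stay above 0 throughout, whereas Klf4 and Pou5f1 lie on either side of 0 as fitted.

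The start regions of the tested members are shown to set the DNA of Klf2, which was called, beside that of Klf4 and Pou5f1, which were not. Windows of 250 bases upstream of the annotated start were taken from RefSeq (GRCm38.p6), where 5 of the 7 members had one. They are written 5′ to 3′ on the strand of the gene, and capitals mark CACCC or its reverse complement GGGTG, the core of the sites that Kruppel-like factors bind.
Klf2: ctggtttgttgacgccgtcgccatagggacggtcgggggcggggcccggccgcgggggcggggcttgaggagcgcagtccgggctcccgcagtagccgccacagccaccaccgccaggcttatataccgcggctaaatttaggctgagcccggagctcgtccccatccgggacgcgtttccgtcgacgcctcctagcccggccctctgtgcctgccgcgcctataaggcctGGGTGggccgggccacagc
Klf4: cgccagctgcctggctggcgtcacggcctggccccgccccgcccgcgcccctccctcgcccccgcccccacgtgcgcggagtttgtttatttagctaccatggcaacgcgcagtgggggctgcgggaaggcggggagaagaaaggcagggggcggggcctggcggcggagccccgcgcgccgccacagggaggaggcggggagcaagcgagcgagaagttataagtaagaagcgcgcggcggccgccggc
Pou5f1: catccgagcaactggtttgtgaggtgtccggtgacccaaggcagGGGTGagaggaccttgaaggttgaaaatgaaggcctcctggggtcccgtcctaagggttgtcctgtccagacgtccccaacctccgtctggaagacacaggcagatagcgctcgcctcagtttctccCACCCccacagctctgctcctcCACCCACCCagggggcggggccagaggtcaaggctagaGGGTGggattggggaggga
The Klf2 window lies at chr8:72318812-72319061 on the plus strand, the Klf4 window at chr4:55532476-55532725 on the minus strand and the Pou5f1 window at chr17:35505782-35506031 on the plus strand. CACCC occurred 1 time in the Klf2 window, 0 times in the Klf4 window and 5 times in the Pou5f1 window, counted on both strands, and 52.0% of 32851 such windows held it at least 1 time. The GC box GGGCGG, counted on both strands, occurred 2 times in the Klf2 window, 4 times in the Klf4 window and 1 time in the Pou5f1 window, against 32.7% of all windows with at least 1. All 3 windows were rich in G and C, with 71.2% for Klf2, 74.0% for Klf4 and 62.0% for Pou5f1, where the median window had 52.4%. A match of letters is a description of the sequence only, and the arrays measured RNA.

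The paralogs of the members (other Sall, Pou, Sox, Klf and Myc genes) moved in both directions. Of 40 paralogs on the array 9 were tested, of which 3 were called higher and 2 lower, where 17.4% of all tested genes were called higher and 44.8% lower. Their median difference was 0.57 beside −1.39 for all tested genes, and 30 were detected in no Ago2-deficient oocyte. Klf7, a Kruppel-like factor known from neurons, averaged 16.59 ± 0.07 in Ago2-deficient oocytes and 12.69 ± 0.13 in GV oocytes, a difference of 3.89 (adjusted p = 0.000173). Klf13 averaged 14.85 ± 0.23 against 12.73 ± 0.46 (difference 2.11, adjusted p = 0.00276), and Pou6f1, a POU factor, was higher by 1.29 (adjusted p = 0.0419). Sall2, the only Sall paralog tested, ran the other way, being detected in all 3 GV oocytes and in no Ago2-deficient oocyte. In the quantile-normalized values it was at least 7.76-fold lower (limma adjusted p = 0.00186), a fold that did not hold after centring. Sox4 was likewise undetected in Ago2-deficient oocytes and was at least 2.54-fold lower in the quantile-normalized values (limma adjusted p = 0.0197). Its direction depended on the scaling, with a difference of −0.57 without scaling, where the call was lost, and 0.99 after centring. Klf10 (difference 1.29), the retrogene Mycs (0.57) and Klf16 (−2.00) were not called. With a common median the higher calls of Klf7 (0.96), Klf13 (−1.11) and Pou6f1 (−0.16) were lost, as were those of Klf13 (−0.0071) and Pou6f1 (0.94) without scaling, and centring on probes detected on all 6 arrays ended the lower calls of Sall2 (−1.22) and Sox4 (0.99). Leaving out any 1 GV array ended the calls of Sox4 (adjusted p = 0.0545 to 0.0734) and Pou6f1 (adjusted p = 0.0871 to 0.138), and Pou6f1 also lost its call without Ago2-deficient replicate 2 (adjusted p = 0.0772) or 3 (adjusted p = 0.0523).

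Network partners of the members moved in both directions. Of 28 on the array 14 were tested, of which 9 were called lower and 3 higher, where 44.8% of all tested genes were called lower and 17.4% higher, and the median difference was −2.47. All 14 were detected in every GV oocyte and 7 of them in every Ago2-deficient oocyte, and among probes detected on all 6 arrays the calls were 3 lower and 3 higher. Gbx2, a homeobox factor downstream of LIF signalling, was undetected in Ago2-deficient oocytes. In the quantile-normalized values it was at least 26.8-fold lower (limma adjusted p = 0.000146). Wdr5, a subunit of histone H3 lysine methyltransferase complexes, averaged 7.70 ± 1.89 in Ago2-deficient oocytes and 12.24 ± 0.27 in GV oocytes (difference −4.54, adjusted p = 0.00482), and was detected on 1 Ago2-deficient array. Dppa2, a DNA-binding protein of the early embryo, averaged 10.97 ± 2.04 against 14.59 ± 0.15 (difference −3.61, adjusted p = 0.0156). Thap11 (−3.24), Dppa3 (−2.29) and Trim28 (−2.65) were called lower as well, and Dppa5a (1.02), the Wnt pathway repressor Tcf7l1 (1.41) and the T-box factor Tbx3 (1.56) higher. The telomere factor Rif1 (0.85) and the zinc finger factor Zfx (0.24) were not called. The call on Dppa2 was lost without GV replicate 1 (adjusted p = 0.0547) or GV replicate 3 (adjusted p = 0.0530), and the 3 higher calls were all lost without any 1 GV array, with a common median and without scaling. With a common median Dppa5a was called lower (−2.21), and its higher call was also lost after cyclic loess (0.98) and after centring (0.45). Without Ago2-deficient replicate 2 or 3 the higher calls of Tcf7l1 and Tbx3 were lost, and without replicate 1 that of Dppa5a (0.95). Tcl1 (−2.76), undetected in Ago2-deficient oocytes, and Lin28a (−1.60) were also called lower. Both calls were lost after centring (−0.97 and −0.48). That of Lin28a was lost after cyclic loess (0.08) and without any 1 GV array as well.

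Known targets of Oct4 and Sox2 were mostly below detection. Of 12 on the array 10 were detected in no Ago2-deficient oocyte and 6 in no GV oocyte, as were 62.9% and 44.9% of the 13840 genes with a symbol. Only 3 were tested, of which 1 was called higher and 2 lower (17.4% and 44.8% of all tested genes). Their median difference was −2.74 beside −1.39 for all tested genes. Utf1, a chromatin-bound factor of undifferentiated cells, had log2 signals of 11.37, 11.50 and 11.40 in Ago2-deficient mature oocytes, against 9.72, 9.69 and 9.53 in wild-type GV oocytes, and was called higher (difference 1.78, adjusted p = 0.00213). Upp1, a uridine phosphorylase, and Jarid2, a cofactor of Polycomb repressive complexes, were undetected in Ago2-deficient oocytes. In the quantile-normalized values their means were at least 86.8-fold and 6.67-fold lower (limma adjusted p = 0.000189 and 0.000831). These bounds are the fitted folds themselves and are no limit beyond these means. With 1 array left out they ranged from 67.2 to 122 for Upp1 and from 5.95 to 7.66 for Jarid2. The Utf1 call was lost with a common median (−0.80) and without scaling (0.31), and that of Jarid2 after centring on probes detected on all 6 arrays (−0.91).

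The subunits of NuRD, the nucleosome remodelling and deacetylase complex that Sall4 recruits, moved in both directions. Of 12 on the array 9 were tested, of which 2 were called higher and 3 lower (17.4% and 44.8% of all tested genes), with a median difference of −0.47. Chd4, the ATPase of the complex, had log2 signals of 14.51, 14.69 and 14.14 in Ago2-deficient mature oocytes, against 8.99, 9.78 and 10.15 in wild-type GV oocytes, a difference of 4.81 (adjusted p = 0.000224). The linker subunits Gatad2b and Gatad2a went opposite ways, with differences of 2.31 (adjusted p = 0.00178) and −1.86 (adjusted p = 0.00470). Mbd3, the methyl-CpG-binding domain subunit, and Mta3 had differences of −1.82 (adjusted p = 0.00237) and −1.13 (adjusted p = 0.0400). The deacetylase Hdac2 (0.17) and the histone chaperone Rbbp7 (2.13) were not called. Gatad2b lost its call with a common median (−0.83) and without scaling (0.28), and Mta3 after cyclic loess (−0.86), without any 1 GV array (adjusted p = 0.0913 to 0.129) and without Ago2-deficient replicate 1 (adjusted p = 0.0700) or 2 (adjusted p = 0.0821).

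Of 13 genes of the Myc-Max network on the array 6 were tested, of which 3 were called lower and 1 higher, close to the 44.8% and 17.4% of all tested genes, with a median difference of −1.30. Max, the obligate dimer partner of Myc, had log2 signals of 6.65, 6.29 and 10.17 in Ago2-deficient mature oocytes, against 11.67, 11.80 and 11.96 in wild-type GV oocytes, a difference of −4.10 (adjusted p = 0.0112). Only Ago2-deficient replicate 3, the oocyte in which Myc was detected, had a detected Max signal, and without it the difference was −5.34. Ruvbl2, an ATPase that binds Myc, had a difference of −4.48 (adjusted p = 0.00151), and Mlxipl, a glucose-responsive factor that pairs with Mlx, one of −2.15 (adjusted p = 0.00570) that was not called after cyclic loess (−1.01). Mlx, the partner of Mlxipl, was higher by 1.53 (adjusted p = 0.0212), a call lost without any 1 GV array, after centring (0.89), without scaling (−0.67) and with a common median, where it was called lower (−1.77). Zbtb17, a zinc finger partner of Myc in repression, and the Max partner Mxd4 were not called, at 0.20 and −0.45.

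Of 21 known Myc targets on the array 11 were tested, of which 4 were called higher and 1 lower (17.4% and 44.8% of all tested genes), with a median difference of 1.21. The nucleolar protein genes Npm1 and Gnl3 (nucleostemin) had differences of 4.60 (adjusted p = 0.000235) and 3.40 (adjusted p = 0.000248). Cdc25a, a phosphatase of the cell cycle, averaged 15.40 ± 0.33 in Ago2-deficient mature oocytes and 11.95 ± 0.51 in wild-type GV oocytes (difference 3.45, adjusted p = 0.000544), and the cap-binding factor Eif4e had a difference of 1.83. Odc1, the rate-limiting enzyme of polyamine synthesis, was called lower (−3.12, adjusted p = 0.0105). It was detected on 1 Ago2-deficient array and on all 3 GV arrays, and so entered the test through the GV group alone. The mitochondrial chaperonin gene Hspe1 (−2.08) and nucleolin, Ncl (1.34), were not called. Cdc25a lost its call with a common median (0.31) and without scaling (1.41), Eif4e likewise (−1.05 and 0.05), and Gnl3 with a common median (0.61).

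In LIF and Wnt signalling, which feed the network in embryonic stem cells, 6 of 10 genes on the array were tested, of which 1 was called higher and 1 lower (17.4% and 44.8% of all tested genes), with a median difference of −0.95. Ctnnb1 (beta-catenin) was higher by 1.52 (adjusted p = 0.00485), a call lost with a common median (−0.66) and without scaling (0.45). Ptpn11, the phosphatase Shp2, was undetected in Ago2-deficient mature oocytes. In the quantile-normalized values it was at least 16.3-fold lower (limma adjusted p = 0.000932), with a difference of −4.15 there and −2.42 after cyclic loess. The LIF co-receptor Il6st (−0.98) and the kinase Gsk3b (0.26) were not called.

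Of 7 genes on the array that act on the stability of the member proteins 5 were tested, of which 1 was called higher and 2 lower (17.4% and 44.8% of all tested genes), with a median difference of −0.30. Skp2, the F-box protein that ubiquitinates Myc, averaged 15.59 ± 0.96 in Ago2-deficient mature oocytes and 11.39 ± 0.23 in wild-type GV oocytes, a difference of 4.19 (adjusted p = 0.000749) that was not called with a common median (1.23). Aurka, the Aurora A kinase, and Ppp2ca, the catalytic subunit of protein phosphatase 2A, were undetected in Ago2-deficient oocytes. In the quantile-normalized values they were at least 16.8-fold and 10.4-fold lower (limma adjusted p = 0.000202 and 0.000472). The ubiquitin ligase Wwp2, which acts on Oct4, and the deubiquitinase Usp28, which acts on Myc, were not called, at 0.89 and −0.30. The 8 lists, in the order given, had 9, 14, 3, 9, 6, 11, 6 and 5 tested genes. Over all of them 16 genes were called higher and 23 lower, where 17.4% and 44.8% of all tested genes were. These list counts were 2 and 43 with a common median, 5 and 31 without scaling, 21 and 21 after cyclic loess, and 16 and 8 among probes detected on all 6 arrays. The counts over all tested genes moved with the same settings. They were 1378 and 3543 as fitted, 311 and 6223 with a common median and 609 and 4778 without scaling. After cyclic loess they were 1952 and 2515, and among probes detected on all 6 arrays 1128 and 543.

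**Figure D4:**
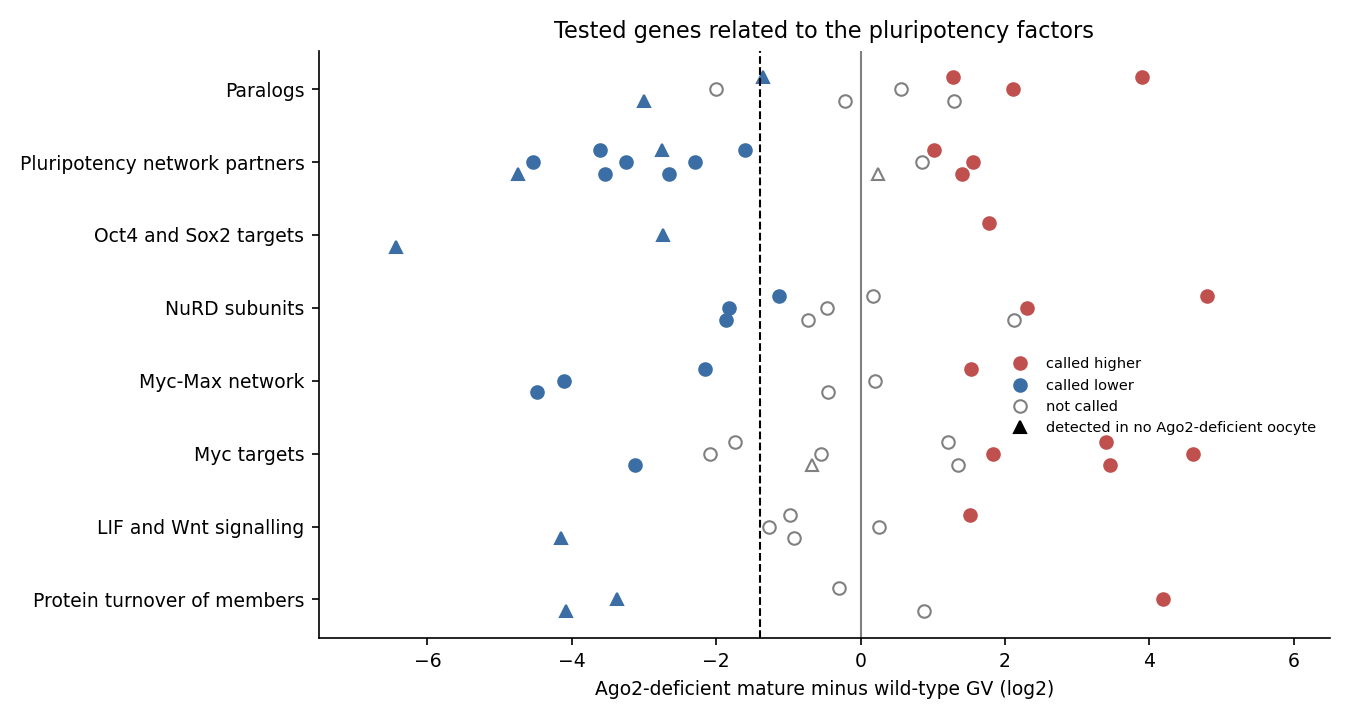
Log2 difference, Ago2-deficient mature minus wild-type GV (horizontal axis), of each tested gene in the 8 lists of related genes (rows). Red points were called higher, blue points lower and open points were not called, triangles mark genes detected in no Ago2-deficient oocyte, and the broken vertical line stands at −1.39, the median over the tested genes. Of the 14 network partners 9 lie left of that line and were called lower, and Myc targets spread to both sides of 0.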

How the data were processed

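Gene expression was measured in 3 mature oocytes deficient in Ago2 and 3 wild-type GV oocytes of the mouse, 1 per array, and groups followed the labels. The authors deposited for each array the scanner's signal intensity without scaling between arrays, an S/N score and a flag score per spot, and quantile-normalized log2 values of all 6 arrays, whose quantiles are equal to within 0.0107. The program that read the scans is not given in the sources. The log2 values were used as deposited and fitted with limma 3.58.1 (lmFit and eBayes, statmod 1.5.0, R 4.3.3) over 8018 probes detected at an S/N of 3 or more on all arrays of at least 1 group, with p-values adjusted by Benjamini and Hochberg over all of them. Calls required an adjusted p below 0.05 and more than a 2-fold change, and a gene was counted by its probe with the highest mean. No replicate block was used. Before adjustment 5303 genes had a p below 0.05.

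Of 33012 probes, 14411 carried 1 gene symbol, 247 several and 18354 none, and the RefSeq gene table changed 0 symbols. A probe not detected on any array of a group gave only a bound, set against the lowest detected level of each array or its own value where higher. Such a bound holds for the means of the quantile-normalized values alone. It leaves out the spread between oocytes and is not a limit under other scalings. For Upp1, Jarid2, Gbx2, Sox4, Aurka and Ppp2ca, as for Pou5f1, it equals the fitted fold. The number of arrays limits the precision. The fit was tested on simulated data. The members and lists were chosen with earlier results of these data known. Named genes were all members, in each list up to 3 called genes with the largest difference and without overlap and up to 2 uncalled genes with the highest mean, and the 5 genes most correlated with Sall4. Other list genes were named after their values were seen. Alternatives were other scalings, filters, detection limits, thresholds and variance models, a replicate block, and leaving out each array. Promoter windows were read with Python 3.11.15 and plotted values drawn with matplotlib 3.10.9.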

Additional observations from a re-analysis of the deposited data

How the results depend on the processing

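Among the genes named by rule, the scaling between arrays decided most of what changed. Other list genes also lost calls under other settings. With no filter on dim probes the 29 calls of genes named by rule were kept. Dppa5a, Tbx3, Tcf7l1, Pou6f1, Mlx, Mta3, Sox4 and Lin28a lost theirs (limma adjusted p = 0.0817 to 0.153). Of 29 called genes named by rule, 16 kept their call under a common median of the arrays, 22 with no scaling, 27 after centring on probes detected on all 6 arrays and 28 after cyclic loess. The counts were 1378 genes higher and 3543 lower, 311 and 6223 with a common median, 609 and 4778 without scaling, and 1128 and 543 among probes detected on all 6 arrays. Of all calls 28% were higher in the quantile-normalized values, 4.76% with a common median, 11.3% without scaling, 43.7% after loess, 39.1% after centring and 67.5% among probes detected on all 6 arrays. The replicate numbers did not pair the samples (correlations of deviations −0.05, 0.03 and −0.03), and a fit with the replicate block gave 1291 genes higher and 3384 lower and kept the 29 calls of genes named by rule, while Dppa5a, Tbx3, Pou6f1, Sox4 and Mta3 lost theirs (adjusted p = 0.0517 to 0.0798). Over the 8 lists the block gave 13 higher and 21 lower calls in place of 16 and 23. The causes were not tested, and the number of detected probes on the Ago2-deficient arrays limits what can be said of dim members.

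Sall4 differed by 1.34 with a common median, 2.44 without scaling and 4.0 after centring. Klf2 gave 0.29 with a common median. Klf4 gave −2.76 with a common median, −1.66 without scaling, 0.71 after loess and −1.61 to −0.67 with 1 array left out. Pou5f1 gave −1.91 with a common median, 0.75 after centring and −1.83 to −0.88 with 1 array left out. With 1 array left out Gsk3b ranged from −0.18 to 0.97, Zfx from −0.22 to 0.60 and Usp28 from −2.06 to 0.82. Dppa2 was −4.55 without Ago2-deficient replicate 1 and −2.53 without replicate 3, Ruvbl2 −3.87 without replicate 1 and −5.21 without replicate 2, Max −3.40 without replicate 2 and −5.34 without replicate 3, and Wdr5 −3.84 without replicate 1 and −5.62 without replicate 3, all still called lower.

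Among the genes named by rule other than the members, signs turned with a common median for Ctnnb1 (−0.66), Gsk3b (−2.84), Ncl (−1.65), Zbtb17 (−3.16), Gatad2b (−0.83), Hdac2 (−2.97), Rbbp7 (−0.69), Utf1 (−0.80), Klf13 (−1.11), Klf10 (−1.66), Mycs (−2.27), Rif1 (−2.38), Zfx (−0.62), Wwp2 (−1.38), Cox8a (−0.46) and Alad (−1.01). Without scaling they turned for Gsk3b (−1.73), Ncl (−0.55), Zbtb17 (−2.06), Hdac2 (−1.87), Klf13 (−0.0071), Klf10 (−0.56), Mycs (−1.17), Rif1 (−1.27) and Wwp2 (−0.28). After centring they turned for Gsk3b (−0.18), Zbtb17 (−0.50), Hdac2 (−0.31) and Usp28 (0.58), and after loess for Usp28 (0.90). Of the members, Pou5f1 turned after centring (0.75) and Klf4 after loess (0.71). Of the other called list genes named above, Mlx (−1.77), Dppa5a (−2.21), Eif4e (−1.05), Tbx3 (−1.20), Tcf7l1 (−0.31) and Pou6f1 (−0.16) turned with a common median. Without scaling Dppa5a (−1.11), Mlx (−0.67) and Tbx3 (−0.10) turned, after centring Sox4 (0.99) and after loess Lin28a (0.08).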
